A study of Homo sapiens with 12 samples.

Results

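HIF target genes outside glycolysis are genes that the hypoxia-inducible factors (HIF) switch on and whose products are not enzymes of the glycolytic chain. They were followed here as 39 protein-coding genes of the 60660 genes listed, picked by symbol. HIF-1 and HIF-2 are transcription factors with an oxygen-labile alpha subunit. In normal oxygen, prolyl hydroxylases of the EGLN family mark this subunit for destruction through VHL, and in low oxygen it persists, pairs with ARNT and binds short DNA elements near its targets. The targets carry out several tasks at once: blood vessel growth (VEGFA), pH control (carbonic anhydrases), removal of mitochondria (BNIP3), collagen maturation (P4HA1, PLOD2, LOX) and brakes on growth (DDIT4, MXI1). The genes were proposed after low-oxygen genes had been seen to be high in a library of 22Rv1, so their levels in that line are given as a description, and the question was how graded the pattern was over the 6 libraries of each line.

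LNCaP, an androgen-sensitive PCa line from a lymph node metastasis, and 22Rv1, a PCa line from a xenograft that relapsed after castration, were transfected with piR-4447944 mimic, a synthetic 2′-O-methylated copy of this piRNA, or with NC-mimic, its negative control. All 4 groups were kept in androgen-deprived medium with 10% CS-FBS, and each group had 3 mRNA libraries, 12 in all. Each line stands for 1 line and not for a class of tumours, the labels give no oxygen level for any library, and they do not say whether libraries came from separate cultures, so p-values measure the spread between these libraries. In bulk libraries, fewer responding cells and less RNA per cell cannot be told apart.

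The libraries held 12161091 to 22179601 expected counts, which are reads per gene as estimated by RSEM. Levels in a library are given as CPM, the counts scaled to the library's total with TMM factors set within the line, and levels of different genes as TPM, which are also corrected for gene length. Of 10 prostate luminal markers, 10 passed the low-count filter in each line. Of the markers of other cells, CDH5 (endothelium) had no counts in either line, PTPRC (leukocytes) and COL1A2 (fibroblasts) had none in LNCaP and CD3E (T cells) had none in 22Rv1. In 22Rv1, the summed 3 endothelial markers were at most 0.503 CPM, the 4 leukocyte markers at most 4.67 CPM and the 5 fibroblast markers between 15.9 and 53.8 CPM. In LNCaP, the endothelial sum was 3.80 to 6.29 CPM, the leukocyte sum at most 2.58 CPM and the fibroblast sum 60.3 to 83.6 CPM. Most of the LNCaP fibroblast sum was COL1A1, at 58.4 to 81.4 CPM. The piR-4447944 mimic replicate 3 library of 22Rv1 stood apart from the other libraries of its line, and results that rest on it are given with and without it. In that library, mitochondrially encoded mRNA made up 1.6% of counts, against 4.07% to 4.79% in the NC-mimic libraries, while its depth of 15449273 counts lay within the range of the others.

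The DNA element that HIF binds has the core ACGTG or GCGTG. In the RefSeq promoter windows of GRCh38.p14, which reach from 250 bases before to 50 bases after a gene's start, 29 members had 39 windows. The letters ACGTG, read on both strands, were in 21 of these 39 windows (53.8%), against 25.03% of 16743 windows of genes tested in 22Rv1 and 21.4% of all 35116 windows. Either core was in 35 of the 39 (89.7%), against 59.9% and 48.4%. Windows of the same gene can overlap and share a core, as in LOX. Counted by gene, ACGTG was in 18 of 29 members (62.1%), against 31.8% of genes tested in 22Rv1 with a window. Either core was in 27 of the 29 (93.1%), against 69.3%. These are counts of letters, with no test, and a match is not a binding site. No window was listed for VEGFA, NDRG1, NDUFA4L2, SPAG4, JMJD6, BNIP3L, STC1, ZNF395, HILPDA or ANKZF1, and the windows of P4HA2 and TMEM45A held neither core. Below are 60 bases upstream of the RefSeq start for the members with the widest range over the 22Rv1 libraries that had a window (ADM, BHLHE40, PPFIA4, ANKRD37), and for BNIP3 and DDIT4. Capitals mark the cores on either strand, so that CACGT and CACGC are the cores read from the other strand, and CACGTG, which is also the E-box, holds ACGTG on both. None of these stretches overlaps an exon of GENCODE 44.
ADM (chr11:10304944-10305003, plus strand): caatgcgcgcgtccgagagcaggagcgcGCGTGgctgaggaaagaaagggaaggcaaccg
BHLHE40 (chr3:4979260-4979319, plus strand): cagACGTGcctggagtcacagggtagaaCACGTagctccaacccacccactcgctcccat
PPFIA4 (chr1:203026345-203026404, plus strand): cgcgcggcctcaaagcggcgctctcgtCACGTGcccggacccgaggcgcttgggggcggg
ANKRD37 (chr4:185396670-185396729, plus strand): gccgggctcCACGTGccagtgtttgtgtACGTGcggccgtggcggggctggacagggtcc
BNIP3 (chr10:131982025-131982084, minus strand): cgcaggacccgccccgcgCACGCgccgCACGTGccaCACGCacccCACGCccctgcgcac
DDIT4 (chr10:72273771-72273830, plus strand): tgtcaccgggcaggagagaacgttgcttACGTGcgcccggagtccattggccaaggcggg
Each stretch was laid around 1 core, GCGTG in ADM and ACGTG in the others, which began 101 bases before it in ADM, 118 in PPFIA4, 125 in DDIT4, 133 in BNIP3, 143 in ANKRD37 and 149 in BHLHE40. ADM had GCGTG and no ACGTG upstream, while BNIP3 had 6 matches to either core within its 250 upstream bases.

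In 22Rv1 cells, 38 of the 39 members passed the low-count filter, and all 38 had their highest value in mimic replicate 3, against 28% of the 16898 genes tested. The filter asks for counts in at least 3 libraries, so it was not passed through that library alone. There, 29 of the 38 members were over 2 times the CPM of each other library, against 2.85% of all genes. Relative to the mean of NC-mimic replicates 1 and 2, the members stood between 1.22-fold and 34.2-fold, with a median of 5.55-fold, and 9 were over 10-fold. The median of all genes tested was 0.990-fold. The same 38 of 38 members were highest in this library when counted on TPM.

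The rest of the 22Rv1 libraries were not at a common baseline. The mean of the members' log2 CPM, each taken relative to the member's own mean over the 6 libraries, was -1.03 in mimic replicate 1, -0.63 in NC-mimic replicate 1, -0.26 in NC-mimic replicate 2, -0.18 in mimic replicate 2, 0.04 in NC-mimic replicate 3 and 2.06 in mimic replicate 3. The span from lowest to highest was 3.09 on the log2 scale, and it was 1.07 over the 5 libraries other than mimic replicate 3. All genes tested had a span of 0.07, but scaling holds their mean near 0, so this is no yardstick for a short list. Among such lists, the span was 2.57 for glycolytic targets, 1.63 for S phase genes and 0.30 for prostate luminal markers. Mimic replicate 1 was the lowest library for 31 of 38 members (14.3% of all genes). All 38 members were higher in mimic replicate 2 than in mimic replicate 1 (49.9% of all genes), 33 were higher in NC-mimic replicate 2 than in NC-mimic replicate 1 (49.6%), and 33 were higher in NC-mimic replicate 1 than in mimic replicate 1 (50.2%). On TPM, these counts were 31, 36, 29 and 32. Members are not independent of each other, so these shares describe 6 libraries and not 38 replicates.

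Among the secreted and surface signals, the 8 members stood in mimic replicate 3 of 22Rv1 between 2.20-fold and 34.2-fold of NC-mimic replicates 1 and 2. VEGFA, the main growth factor of blood vessels (chr6:43770184-43786487 in hg38), had 152, 197 and 346 CPM in NC-mimic replicates 1 to 3 and 127, 212 and 2521 CPM in the mimic libraries. ADM, which encodes the vasodilator peptide adrenomedullin, had 3.23, 4.37 and 17.9 CPM with NC-mimic and 2.17, 3.64 and 130.1 CPM with the mimic. Both genes were lowest in mimic replicate 1, and for both the second highest library was NC-mimic replicate 3, so the groups overlapped. ANGPTL4, a secreted inhibitor of lipoprotein lipase, had 14.4, 21.5 and 23 CPM with NC-mimic and 9.3, 23.9 and 141 CPM with the mimic. STC1, a secreted glycoprotein, had 4.78, 6.91 and 46 CPM with NC-mimic and 2.73, 8.84 and 73.4 CPM with the mimic. Its NC-mimic replicate 3 was thus far above the other NC-mimic libraries and close to mimic replicate 3. Its relative STC2 had 40.4 CPM in NC-mimic replicate 3 and 129.6 CPM in mimic replicate 3, and 11.7 to 23.9 CPM elsewhere. CXCR4, the receptor of the chemokine CXCL12, was a low gene, with 1.14, 3.19 and 3.37 CPM against 0.769, 4.7 and 19.2 CPM. VLDLR, a lipoprotein receptor, was 3.54-fold and the ephrin ligand EFNA3 2.20-fold of NC-mimic replicates 1 and 2 in mimic replicate 3.

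The carbonic anhydrases CA9 and CA12, which sit in the plasma membrane and regulate pH, differed in level. CA9, often used as a marker of HIF activity, did not pass the filter in either line. Its expected counts in 22Rv1 were 0, 0 and 2 in the NC-mimic libraries and 0, 1 and 7 in the mimic libraries, and the 6 LNCaP libraries held 2 counts in all, both in mimic replicate 1. A count of 0 allows up to 3 counts, or 0.135 to 0.247 CPM in 22Rv1, so the level of CA9 was at the limit of this depth even in mimic replicate 3, at 0.448 CPM. CA12 had 42.2, 43.8 and 49.6 CPM with NC-mimic and 36.1, 41.8 and 78 CPM with the mimic, which was among the 3 smallest ranges of the members in 22Rv1.

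The 5 mitochondrial members stood between 1.22-fold and 29.0-fold in mimic replicate 3. NDUFA4L2, a mitochondrial protein that lowers complex I activity, had the widest range of all members, with 33.5, 85.2 and 332 CPM with NC-mimic and 15.6, 73.3 and 1719.7 CPM with the mimic, or 110-fold from the lowest to the highest library. Its 6 values lay far apart, and NC-mimic replicate 3 was itself 5.59-fold of the mean of the other NC-mimic libraries. BNIP3, a receptor for the removal of mitochondria, had 99.5, 171 and 141 CPM with NC-mimic and 50.6, 185 and 1065 CPM with the mimic. BNIP3L, its relative, and FAM162A, a mitochondrial protein, were 6.10-fold and 5.29-fold of NC-mimic replicates 1 and 2 in mimic replicate 3. AK4, the adenylate kinase of the mitochondrial matrix, had 187, 228 and 109 CPM with NC-mimic and 191, 218 and 253 CPM with the mimic. Its highest library was only 1.11-fold of the next, the smallest such excess among the members, and its lowest was NC-mimic replicate 3. The expected counts of 12 members, AK4 and BNIP3 among them, were not whole in some library, so RSEM had divided reads between these genes and similar sequences.

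**Figure D1:**
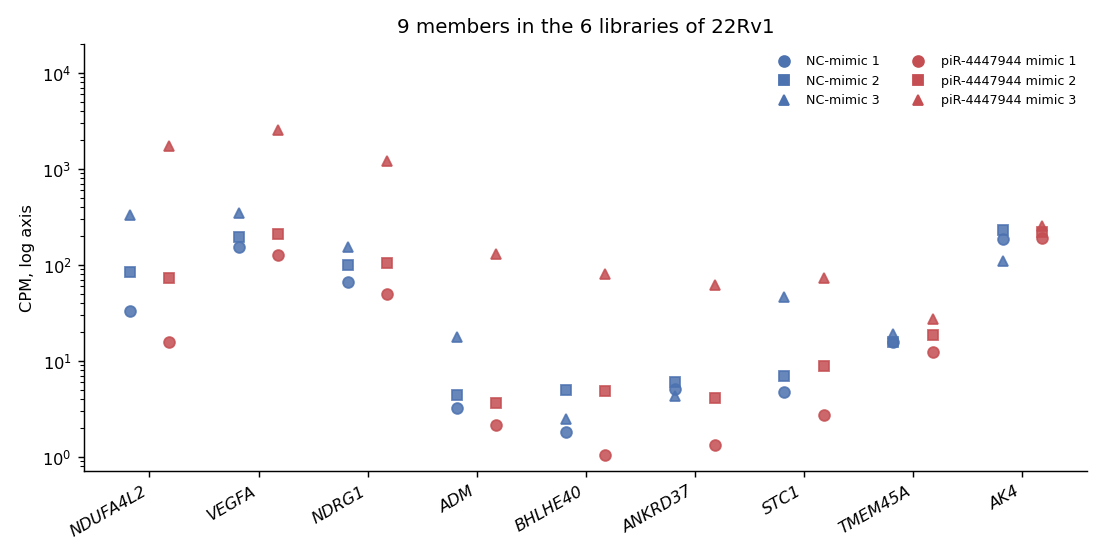
CPM on a log axis of 9 members in the 6 libraries of 22Rv1, NC-mimic in blue and piR-4447944 mimic in red, with a symbol for each replicate number. NDUFA4L2 reaches from 15.6 to 1719.7 CPM and AK4 from 109 to 253 CPM.

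The 6 genes of collagen and oxidative folding were the most even group, between 4.13-fold and 7.87-fold in mimic replicate 3 of 22Rv1 and all above NC-mimic replicates 1 and 2 in NC-mimic replicate 3. P4HA1, a catalytic subunit of collagen prolyl 4-hydroxylase, had 64, 79.4 and 115 CPM with NC-mimic and 44.3, 89.9 and 564 CPM with the mimic. P4HA2, the other catalytic subunit, was 6.78-fold, and the lysyl hydroxylases PLOD1 and PLOD2 were 6.65-fold and 4.13-fold. LOX, which cross-links collagen, was 5.07-fold, and ERO1A, the oxidase that drives disulfide formation in the endoplasmic reticulum, 4.14-fold.

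The 4 chromatin and hydroxylase genes had a median of 2.78-fold in mimic replicate 3, from 1.91-fold to 4.72-fold. KDM3A, a demethylase of histone H3 lysine 9, had 64.4, 61.6 and 58 CPM with NC-mimic and 52.6, 78.4 and 298 CPM with the mimic, so the NC-mimic libraries were close together and mimic replicate 3 stood alone. KDM4B and KDM4C, which act on the same residue, were 2.66-fold and 2.89-fold, and JMJD6 was 1.91-fold.

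The 8 regulators had a median of 8.01-fold in mimic replicate 3. BHLHE40, a transcriptional repressor, had 1.82, 4.96 and 2.47 CPM with NC-mimic and 1.05, 4.81 and 80.3 CPM with the mimic, so mimic replicate 3 was 16.2-fold of the next library. ANKRD37, an ankyrin repeat protein, had 5.05, 6 and 4.36 CPM with NC-mimic and 1.33, 4.14 and 62.2 CPM with the mimic. For both genes NC-mimic replicate 3 was below the mean of the other NC-mimic libraries. NDRG1, a stress-induced gene that also responds to androgen, had 67, 101 and 153 CPM with NC-mimic and 49.3, 104 and 1218 CPM with the mimic. DDIT4, an inhibitor of mTORC1, had 75, 144 and 145 CPM with NC-mimic and 48.6, 138 and 1346 CPM with the mimic. In the other regulators, mimic replicate 3 was 4.76-fold of NC-mimic replicates 1 and 2 for WSB1, a substrate adaptor of a ubiquitin ligase, 3.31-fold for ANKZF1, 2.80-fold for the MYC antagonist MXI1 and 2.12-fold for the transcription factor ZNF395.

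Of the storage genes, the glycogen branching enzyme GBE1 was 5.81-fold and the lipid droplet protein HILPDA 4.51-fold in mimic replicate 3, while GYS1, the glycogen synthase of muscle and most other tissues, had 100.5, 99.2 and 82.9 CPM with NC-mimic and 96.3, 108 and 172 CPM with the mimic. GYS1 had the smallest range of the 38 members, 2.07-fold from lowest to highest. None of the 3 was above NC-mimic replicates 1 and 2 in NC-mimic replicate 3. PPFIA4, which encodes a liprin, had 15.1, 28.7 and 20.2 CPM with NC-mimic and 4.4, 31.7 and 275 CPM with the mimic. TMEM45A, a transmembrane protein, had 15.6, 15.8 and 19.2 CPM with NC-mimic and 12.5, 18.6 and 27 CPM with the mimic. SPAG4 was low, with 7.49 CPM in NC-mimic replicate 3, 13.1 CPM in mimic replicate 3 and 1.55 to 2.80 CPM elsewhere.

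NC-mimic replicate 3 split the members. Of 38, 25 were higher there than in both other NC-mimic libraries (40.4% of all genes). Another 8 were lower than in both, a count given without the share of all genes and so not read against it. For 21 members the libraries numbered 3 were the highest pair (19.1% of all genes). On TPM, 22 members were above both other NC-mimic libraries and 19 had both libraries numbered 3 on top. For the 33 members whose mimic replicate 3 was more than 1 above the mean of NC-mimic replicates 1 and 2 on the log2 scale, NC-mimic replicate 3 was placed on the way between them. Its median position was 13.3% of the distance, and 58.3% for the 2092 genes of the whole table with such a difference. The mean of NC-mimic replicates 1 and 2 enters both the choice of genes and the position. Noise in this mean can raise the position of genes so chosen, so 58.3% is no unbiased background. STC1 lay at 81.6%, SPAG4 at 70.2%, EFNA3 at 54.3%, NDUFA4L2 at 52.6%, STC2 at 44.04% and ADM at 43.6%. At the other end, ANKRD37 lay at -9.46%, HILPDA at -12.7%, KDM4B at -14.2% and ZNF395 at -48.3%, below the other NC-mimic libraries. In all, 10 members lay below 0, 12 between 0 and 25%, 7 between 25 and 50% and 4 above 50%. Of the 2092 genes, 354 lay below 0 and 1158 at 50% or above.

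Other gene lists moved with the members over the 22Rv1 libraries. Of 20 glycolytic targets tested, 20 were highest in mimic replicate 3, and their mean log2 deviation was 1.74 there and 0.02 in NC-mimic replicate 3. The 12 targets of ATF4, the factor of amino acid and unfolded protein stress, had 1.37 in mimic replicate 3 and 0.58 in NC-mimic replicate 3, but DDIT4, STC2 and VLDLR are on both lists. The 9 ATF4 targets that are no members were 1.23 higher in NC-mimic replicate 3 and 1.52 higher in mimic replicate 3 than in NC-mimic replicates 1 and 2 on the log2 scale, and the HIF targets 0.48 and 2.5. Mimic replicate 3 was the lowest library for 15 of 15 S phase genes, 14 of 14 genes of G2 and mitosis and 13 of 13 mitochondrially encoded genes, with mean deviations of -1.25, -1.36 and -1.36. The 10 prostate luminal markers had -0.11. The 3 fibroblast markers past the filter, of 5 listed, were on average 1.13 higher in NC-mimic replicate 3 and 1.15 higher in mimic replicate 3 than in NC-mimic replicates 1 and 2 on the log2 scale. Of these, the collagen gene COL1A1 had 12.4, 15.4 and 39 CPM with NC-mimic and 11.7, 17.1 and 48.5 CPM with the mimic, while LUM had 2.22 to 3.97 CPM and DCN, which did not pass, at most 1.28 CPM. The part of these lists in the members' pattern was not tested.

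**Figure D2:**
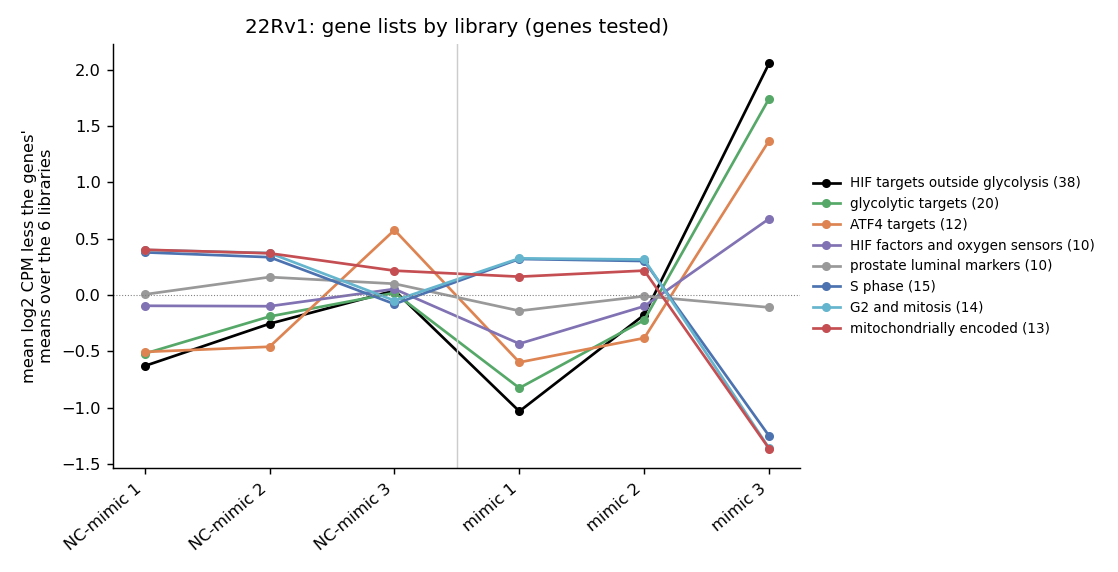
Mean log2 CPM of 8 gene lists in the 6 libraries of 22Rv1, each gene less its mean over these libraries, with the number of genes tested in parentheses. In mimic replicate 3 the members are at 2.06, glycolytic targets at 1.74 and ATF4 targets at 1.37, and mitochondrially encoded, S phase and G2 and mitosis genes are between -1.36 and -1.25.

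HIF1A mRNA had 172, 153 and 101 CPM with NC-mimic and 176, 157 and 79.8 CPM with the mimic, so it was lowest where the members were highest. EGLN3, a prolyl hydroxylase that is itself a HIF target, had 3.73, 5.15 and 2.88 CPM with NC-mimic and 2.24, 3.36 and 23.7 CPM with the mimic, and EGLN1 had 383 CPM in mimic replicate 3 against 80.2 to 111 CPM elsewhere. EPAS1, which encodes HIF-2 alpha, had 10.1 and 8.71 CPM in NC-mimic and mimic replicate 3 and 2.69 to 4.11 CPM in the other libraries. Of the 10 genes of this list, 0 were called between mimic and NC-mimic in 22Rv1, and of the 20 glycolytic targets 1 was (PFKFB3, higher).

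The comparison of piR-4447944 mimic with NC-mimic in 22Rv1 asks what the piRNA changes in this line. All 38 members tested were on average higher with the mimic, by a median of 1.13 on the log2 scale, against -0.01 for all genes. Without mimic replicate 3 only 7 of 38 were higher and the median was -0.22, and without both libraries numbered 3 the values were 13 of 38 and -0.06. In edgeR's quasi-likelihood test, 0 of 38 members met the study's rule of an unadjusted p under 0.05 and a log2 fold change over 0.2, against 250 of 16898 genes (1.48%). At a Benjamini-Hochberg adjusted p under 0.05, 0 members and 0% of genes were called, and 0 members had an unadjusted p under 0.05. The study's rule called 2 members and 342 of 16898 genes with DESeq2. It called 2 members with limma on log2(TPM + 1) and 17 with edgeR without the low-count filter. The counts of all genes for these settings are given below with the dependence on the processing. No member had mimic libraries all above (4.08% of all genes) or all below (4.63%) the NC-mimic libraries. The smallest p of a member was 0.0529, for BHLHE40, at a log2 fold change of 3.22 with an SE of 1.40. VEGFA had 2.04 with an SE of 1.06 and NDUFA4L2 2.01 with an SE of 1.56. Without mimic replicate 3, these log2 fold changes were -0.06, -0.45 and -1.74. With the replicate number as a block, which pairs the 22Rv1 libraries by their values, 420 genes met the study's rule and 0 of 38 members did, at a median of 0.58. Leaving out the low mimic replicate 1 gave 24 of 38 members and 365 genes called, and leaving out mimic replicate 2 gave 6 members and 317 genes.

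In LNCaP cells the members were nearly flat. Of 39 members 34 passed the filter, and ADM, CA9, PLOD2, ANGPTL4 and STC1 did not, with 2 expected counts for CA9 and 31 to 57 for the others over the 6 libraries. The mean deviation of the 34 members lay between -0.12 in mimic replicate 2 and 0.14 in mimic replicate 3, a span of 0.26. All genes tested had a span of 0.04, but scaling holds their mean near 0. Of other short lists, the span was 0.48 for S phase genes and 0.36 for mitochondrially encoded genes. It was 0.21 for glycolytic targets and 0.09 for prostate luminal markers. The median member differed 1.31-fold from its lowest to its highest library, and so did the median gene of the whole table.

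The mean deviation of the members was highest in the libraries numbered 3 of LNCaP, at 0.10 with NC-mimic and 0.14 with the mimic, and 11 of 34 members had this pair on top (14.2% of all genes). VEGFA had 73.8, 67.3 and 94.4 CPM with NC-mimic and 84.9, 77.2 and 108 CPM with the mimic. NDRG1 had 54.2, 58.3 and 81.5 CPM with NC-mimic and 55.3, 64 and 103 CPM with the mimic, and DDIT4 181, 148 and 256 CPM with NC-mimic and 185, 201 and 261 CPM with the mimic. In each of these genes the libraries numbered 3 were the top pair, with a mean of 1.34-fold to 1.59-fold that of the other 4. Of the 11 members, 7 were also among the 21 with this order in 22Rv1 (CA12, DDIT4, NDRG1, SPAG4, STC2, TMEM45A and VEGFA), which is 63.6% of the LNCaP list and 33.3% of the 22Rv1 list. Since 55.3% of the 38 members tested in 22Rv1 had this order there, the overlap is near that share. In LNCaP the other members tested did not have the libraries numbered 3 as the top pair. Mimic replicate 3 alone was the highest library for 18 of 34 members (52.9%), ANKRD37 and BNIP3 among them, against 2904 of 16244 genes tested. NDUFA4L2 had 1.5, 1.9 and 2.13 CPM with NC-mimic and 1.82, 2.27 and 1.79 CPM with the mimic, ANKRD37 3.74 to 6.12 CPM, and BNIP3 148, 161 and 154 CPM with NC-mimic and 159, 161 and 199 CPM with the mimic. The smallest ranges were those of P4HA2 (23.2 to 25.5 CPM), KDM3A (40.5 to 45.4 CPM) and KDM4B (113 to 129 CPM). P4HA1 reached from 56 to 69.5 CPM and BHLHE40 from 11.6 to 17.4 CPM. The widest ranges were those of low genes, TMEM45A (1.04 to 3.35 CPM), LOX (0.674 to 2.02 CPM), SPAG4 (1.04 to 3.10 CPM), PPFIA4 (3.85 to 7.73 CPM) and CXCR4. S phase genes had mean deviations of -0.18 and -0.31 in the libraries numbered 3 of NC-mimic and mimic and 0.09 to 0.18 elsewhere, and their part in the members' values was not tested.

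Between piR-4447944 mimic and NC-mimic in LNCaP, 22 of 34 members were higher with the mimic, at a median of 0.04 on the log2 scale against -0.003 for all genes. By the study's rule, 2 of 34 members were called, against 361 of 16244 genes (2.22%), and at an adjusted p under 0.05, 0 members and 0% of genes were (433 genes at an unadjusted p, and 2 genes by DESeq2's adjusted p). MXI1, which antagonises MYC, had 63.8, 69 and 61.5 CPM with NC-mimic and 55.9, 52.5 and 56.7 CPM with the mimic. It fell by 0.23 on the log2 scale, with an SE of 0.08 and an edgeR adjusted p of 1.00. CXCR4 had 1.39, 1.39 and 1.21 CPM with NC-mimic and 0.675, 0.796 and 0.75 CPM with the mimic, from 74 and 36 expected counts in all. It fell by 0.84 on the log2 scale, with an SE of 0.37 and an adjusted p of 1.00. For both genes the mimic libraries were all below the NC-mimic libraries, as for 3.89% of all genes, and JMJD6 was the member with the mimic libraries all above (4.06%). The call of CXCR4 was lost without any 1 of the 6 libraries, and that of MXI1 without NC-mimic replicate 2 or mimic replicate 2. Of the other lists, 1 of 20 glycolytic targets (PDK1, higher) and 0 of 9 genes of the HIF system were called.

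Whether the mimic acted differently in the lines was asked over all 12 libraries. By the study's rule, 1 of 38 members was called, against 610 of 18720 genes (3.26%), and 0 members and 0% of genes at an adjusted p under 0.05. The member was BHLHE40, whose log2 difference between mimic and NC-mimic was 3.46 higher in 22Rv1 than in LNCaP, with an SE of 1.47 and an edgeR adjusted p of 1.00. Its LNCaP values lay between 11.6 and 17.4 CPM in all 6 libraries. Without mimic replicate 3 of 22Rv1 the difference was 0.17 and 0 members were called, and with the replicate number as a block it was 1.75 and no longer called. The call was lost on leaving out any of 9 of the 12 libraries, the 6 of LNCaP and 3 of 22Rv1 (NC-mimic replicates 1 and 3 and mimic replicate 3). Leaving out mimic replicate 1 or 2 of 22Rv1 gave 24 or 8 members called, with 1041 or 965 genes.

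The baseline levels of the members were compared between the lines in the NC-mimic libraries alone. NDUFA4L2, LOX, TMEM45A, PPFIA4, ERO1A and VEGFA were higher in 22Rv1, while BHLHE40, STC2 and PLOD1 were lower. Of the 34 members that passed the filter in both lines, 15 were higher and 7 lower in 22Rv1 at an adjusted p under 0.05, and 12 were not called. Among all 17497 genes tested, 30.9% were higher and 27.5% lower. Unlike the 34 members, these genes include those past the filter through 1 line alone, which raises this share and the next. With a log2 fold change over 1 as well, 8 of the 34 were higher (19.1% of all genes) and 3 lower (15.4%). With all 12 libraries in 1 fit, which shares the spread of the mimic libraries, 5 of the 34 were higher and 0 lower, so BHLHE40, STC2 and PLOD1 were not called there, while 10332 genes were called in all. The other 4, PLOD2, ANGPTL4, STC1 and ADM, passed the filter through 22Rv1 alone. They were counted apart, since such a filter favours genes that are higher in that line.

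PLOD2, which passed the filter through 22Rv1 alone, had 0.247 ± 0.091 TPM (SD, n = 3) in LNCaP and 32.7 ± 4.17 TPM in 22Rv1. Its log2 fold change was 7.83 with an SE of 0.29. Only 18 expected counts of it were found in the 3 NC-mimic libraries of LNCaP, while its paralog PLOD1 was lower in 22Rv1, by 1.28 on the log2 scale with an SE of 0.14, at 77.3 ± 10.6 TPM in LNCaP and 30.6 ± 2.73 TPM in 22Rv1. The lysyl hydroxylases were thus close in TPM in 22Rv1 and far apart in LNCaP. LOX was higher by 2.81 on the log2 scale (SE 0.44) and ERO1A by 1.59 (SE 0.17).

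NDUFA4L2 had 2.85 ± 0.48 TPM (SD, n = 3) in LNCaP and 209 ± 217 TPM in 22Rv1, where the SD was as large as the mean. Its log2 fold change was 6.32 (SE 0.91), and 4.98 without NC-mimic replicate 3 of 22Rv1. Among the signals, ANGPTL4, STC1 and ADM passed the filter through 22Rv1 alone, which favours a higher level there. They were higher by 5.85 (SE 0.37), 4.75 (SE 1.05) and 4.71 (SE 0.77). VEGFA, which passed the filter in both lines, was higher by 1.54 (SE 0.29). VEGFA had 53.5 ± 4.12 TPM in LNCaP and 135 ± 52.8 TPM in 22Rv1. Without NC-mimic replicate 3 of 22Rv1, these log2 fold changes were 3.05 for STC1, 3.57 for ADM and 1.13 for VEGFA. In that fit 14 of the 34 members past the filter in both lines were higher and 11 lower, with 12117 genes called in all against 10226. STC2 was lower in 22Rv1 by a log2 fold change of -1.53 (SE 0.34), opposite to STC1, with 37.7 ± 3.62 TPM in LNCaP and 8.94 ± 5.04 TPM in 22Rv1. BHLHE40 was lower by a log2 fold change of -2.44 (SE 0.36), with 8.75 ± 0.92 TPM in LNCaP and 1.32 ± 0.69 TPM in 22Rv1. TMEM45A, PPFIA4, WSB1 and ANKZF1 were higher in 22Rv1 by 3.15, 2.17, 1.17 and 1.05 on the log2 scale. Members that were not called included BNIP3 (105 ± 3.44 and 80.9 ± 18.4 TPM), DDIT4 (193 ± 48.2 and 108 ± 32.9 TPM) and NDRG1 (36.3 ± 5.05 and 52.2 ± 22.8 TPM in LNCaP and 22Rv1). DDIT4 and NDRG1 had edgeR adjusted p of 0.0567 and 0.0638, and they were called without all libraries numbered 3 (0.0186 and 0.00681). They were also called with the replicate block (0.0202 and 0.00609). That block pairs LNCaP with 22Rv1 libraries of equal number, although the labels name no shared batch, so these calls rest on an assumed pairing.

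**Figure D3:**
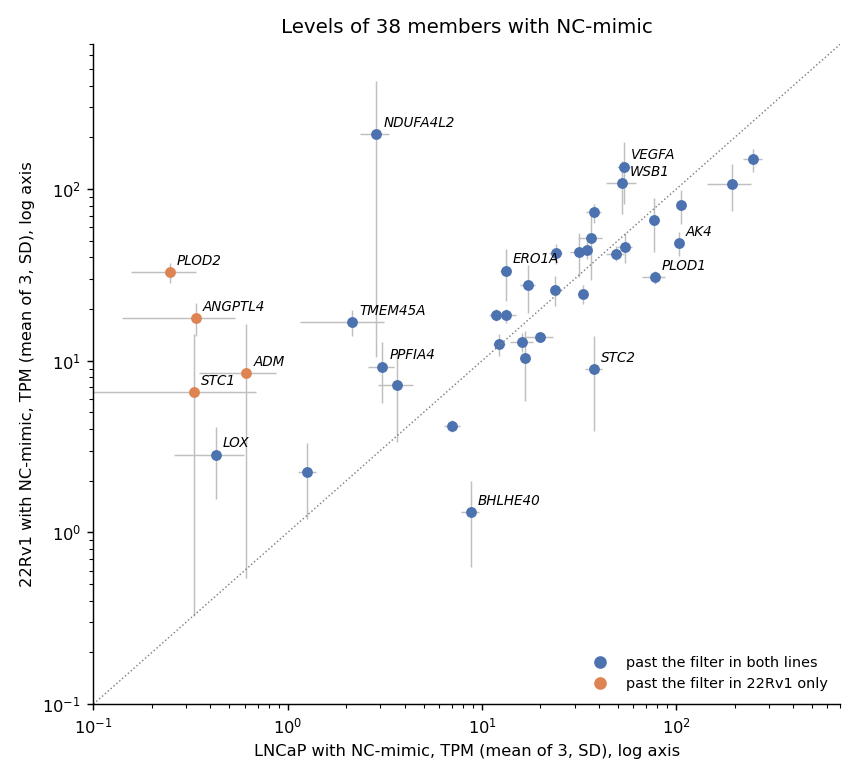
TPM of 38 members in the NC-mimic libraries of LNCaP and 22Rv1, as the mean of 3 libraries with SD on log axes, where lower bars stop short of 0 if the SD exceeds the mean, and the dotted line marks equal levels. CA9 is left out since it had no counts in LNCaP with NC-mimic. Names are given where the means differ over 2-fold. PLOD2, which passed the filter in 22Rv1 only, lies farthest from the line, at 0.247 and 32.7 TPM.

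Of the wider pathway, 11 of 20 glycolytic targets were higher and 1 (PFKP) lower in 22Rv1 at an adjusted p under 0.05. Of 9 genes of the HIF system, EGLN1 and HIF1AN were higher, by 1.09 and 0.98 on the log2 scale, and EGLN3, ARNT2, VHL and ARNT were lower, with log2 fold changes of -3.13, -1.08, -0.48 and -0.35, while HIF1A and EPAS1 were not called. Of 15 S phase genes 15 were higher in 22Rv1, and the part of the cell cycle in the difference of the members was not tested.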

How the data were processed

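The authors used STAR 2.7.1a for alignment to hg38 and RSEM 1.3.0 for gene quantification, and they deposited expected counts, which RSEM estimates and which need not be whole. The deposited TPM values, also from RSEM, are scaled to the length of the gene and the total of the library. Groups came from the sample labels. Expected counts were rounded and tested per line with edgeR 4.0.16 in R 4.3.3 (TMM, filterByExpr, quasi-likelihood test), the lines being compared in the NC-mimic libraries and the difference of the mimic effects over all 12. Calls used the study's rule (p under 0.05 and log2 fold change beyond 0.2) or a Benjamini-Hochberg adjusted p under 0.05. DESeq2 1.42.0 and limma 3.58.1 on log2(TPM + 1) were alternatives. The script was tested on simulated data: of 200 genes changed 2-fold, 199 were recovered by adjusted p in LNCaP and 0 in 22Rv1, and of 200 changed 4-fold, 200 and 173. In these simulations the study's rule also called 642 and 644 unchanged genes in LNCaP, and 799 and 741 in 22Rv1. That is more than the 361 and 250 genes it called in the deposited data of these lines.

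The members and lists were chosen with earlier results of these data known. Genes described by name were the textbook members, those called, and those with the largest and smallest ranges in each line, and further members are given to complete their role group. Library orders and ranges are descriptions without a test. Depth was 12161091 to 22179601 counts per library, and a count of 0 allows up to 3 counts, which covers counting error only. Replicate numbers pair the 22Rv1 libraries by their values alone, with correlations of deviations from the group means of 0.252, 0.197 and 0.394, and the labels name no shared batch.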

Additional observations from a re-analysis of the deposited data

Results flagged for a closer look

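The mimic effect on BHLHE40 differed between the lines by an interaction test at an unadjusted p, with a log2 difference 3.46 higher in 22Rv1 than in LNCaP (edgeR adjusted p 1.00). In 22Rv1 the mimic libraries had 1.05, 4.81 and 80.3 CPM, so the effect was higher in 1 of 3 mimic libraries, and it was 0.17 without mimic replicate 3.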

How the results depend on the processing

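Of the alternatives, 462 values were labelled the same, 56 moved, 36 lost and 8 gained a call, and 13 changed direction. Only log2 fold changes of single genes were judged by their call. Counts were the same within a fixed ratio. Medians and spans were the same if they shifted by less than the within-group SD of the members' library means. This SD was 0.11 in LNCaP and 1.15 in 22Rv1, and the latter also served for the comparisons between lines. Large shifts of medians there can thus count as the same. The count of members called between mimic and NC-mimic was, for LNCaP, 1 without a low-count filter, 0 with DESeq2, 4 without all libraries numbered 3, 0 with all 12 libraries in 1 fit and 0 to 5 on leaving out 1 library. For 22Rv1 it was 17 without a filter, 2 with DESeq2, 2 with limma, 15 with all 12 libraries and 0 to 24 on leaving out 1. For the difference between the lines it was 11, 2 and 2 without a filter, with DESeq2 and with limma, 0 without the libraries numbered 3 and 0 to 24 on leaving out 1. The count of all genes called was, for LNCaP, 891 without a filter, 24 with DESeq2, 578 with limma, 929 without the libraries numbered 3, 168 with all 12 and 284 to 1008 on leaving out 1. For 22Rv1 it was 532 without a filter, 342 with DESeq2, 459 with limma, 781 without the libraries numbered 3, 1232 with all 12 and 183 to 376 on leaving out 1. For the difference it was 1035 without a filter, 738 with DESeq2, 338 with at least 10 counts in every library, 1333 without the libraries numbered 3 and 407 to 1041 on leaving out 1. Between the lines, all 12 libraries in 1 fit called 9 members, 8 of them over 2-fold. Without all libraries numbered 3, the median log2 fold change of the members was -0.00318 in LNCaP, -0.0598 in 22Rv1 (13 members above 0) and -0.0612 for the difference (15 above 0), and in 22Rv1 VEGFA had -0.0363, NDUFA4L2 -0.39 and BHLHE40 -0.18. On leaving out 1 library, the members above 0 were 11 to 23 in LNCaP, 7 to 38 in 22Rv1 and 9 to 38 for the difference, and the medians -0.0117 to 0.0705, -0.22 to 1.55 and -0.25 to 1.64. Likewise VEGFA had -0.45 to 2.55, NDUFA4L2 -1.74 to 3.35 and BHLHE40 -0.0607 to 3.78 in 22Rv1, and the span of the members' mean there was 1.07 to 3.09. The lowest of these values in 22Rv1 came without mimic replicate 3, and the cause of the other changes was not tested. The order of members on TPM and by DESeq2 size factors, and the ATF4 list without its HIF targets, were added after seeing the data.

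A replicate block raised the genes called to 420 in 22Rv1 and, in LNCaP, to 508, with 1 member called there. In LNCaP the numbers 1 and 2 did not pair the libraries (correlations 0.0631 and 0.0057). For number 3 the correlation was 0.241, within the 0.197 to 0.394 of 22Rv1. Of the 6 LNCaP libraries, 2 correlated best with their own number.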
